A study of Mus musculus with 6 samples.

Results

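The Id inhibitors and the E proteins of mouse muscle stem cells were followed across 6 RNA sequencing libraries. The 7 members, Id1, Id2, Id3 and Id4 and the E protein genes Tcf3, Tcf4 and Tcf12, were taken by exact symbol from a table of 43283 genes, and all 7 were found. The cells were sorted from hindlimb muscles of female C57BL/6 mice as α7-integrin and CD34 positive cells that lack CD45, Sca1, CD31 and CD11b. The protocols give an age of 8 to 12 weeks and the series design 2 to 4 months. All cells were cultured in a serum-containing medium for 24 h, with prostaglandin E2 (PGE2) in 3 libraries and with its solvent DMSO (Vehicle) in the other 3. No label gives the dose of PGE2, and RNA came from 5000 to 10000 cells per sample. The libraries are called biological triplicates without saying whether they came from separate animals or sorts. A p-value here therefore sets a difference against how far these libraries lie apart, whatever the source of that distance.

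E proteins are basic helix-loop-helix transcription factors that pair with the myogenic factors MyoD and Myf5 and bind the E-box, the DNA motif of many muscle genes. Id proteins carry the helix-loop-helix without the DNA-binding basic region, so that a pair of an Id and an E protein cannot hold DNA. Bone morphogenetic protein (BMP) signalling through SMAD proteins is the classical inducer of Id1, Id2 and Id3, and in muscle precursors high Id levels go with growth and falling levels with differentiation. The symbols invite confusion: Tcf3, Tcf4 and Tcf12 as used here are E proteins, whereas the T cell factors of the Wnt pathway, for which similar names were once used, are Tcf7, Tcf7l1, Tcf7l2 and Lef1.

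Id2 was the dominant Id transcript in every library and Tcf12, followed by Tcf4, the dominant E protein transcript. None of the 7 passed the test for a difference between PGE2 and Vehicle. Id2, Tcf12 and, less closely to Id2, Tcf4 had like profiles over the 6 libraries. The first Vehicle library was the highest, Vehicle 3 the lowest of its group, and the PGE2 libraries lay close together. In TPM as deposited, the PGE2 values lay above Vehicle 3 for Id2 and Tcf12 and below it for Tcf4. Id1 and Tcf3 instead varied most among the PGE2 libraries. Tcf4 was the 1 of 7 members whose groups did not overlap in TPM as deposited, with the lower values in PGE2, where 8.01% of all tested genes did not overlap (4.84% lower and 3.18% higher with PGE2). After median-ratio scaling its groups overlapped, and the PGE2 libraries of all 3 genes lay further apart.

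The promoters of the 2 members with the closest profiles, Id2 and Tcf12, and that of Id3, the second most abundant Id transcript, are shown as RefSeq windows of 300 bases on GRCm38.p6, from 250 bases before to 50 after a RefSeq start, each read along the gene's own strand. Capitals mark E-boxes (CANNTG) and the core of the cAMP response element (TGACG or its reverse complement CGTCA), the DNA element of CREB, which acts downstream of the cAMP-coupled PGE2 receptors.
Id2, chr12:25096043-25096342, minus strand: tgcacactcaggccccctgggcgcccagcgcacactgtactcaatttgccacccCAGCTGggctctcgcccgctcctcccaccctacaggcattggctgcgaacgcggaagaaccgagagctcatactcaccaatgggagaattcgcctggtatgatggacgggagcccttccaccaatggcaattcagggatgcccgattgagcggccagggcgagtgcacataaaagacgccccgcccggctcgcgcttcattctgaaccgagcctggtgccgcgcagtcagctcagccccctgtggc
Tcf12, chr9:72111770-72112069, minus strand: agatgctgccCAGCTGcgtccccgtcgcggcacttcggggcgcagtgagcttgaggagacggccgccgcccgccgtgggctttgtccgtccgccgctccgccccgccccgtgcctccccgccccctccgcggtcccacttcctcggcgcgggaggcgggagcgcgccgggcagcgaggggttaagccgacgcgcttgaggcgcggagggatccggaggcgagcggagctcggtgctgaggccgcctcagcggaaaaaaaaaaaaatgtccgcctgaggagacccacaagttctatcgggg
Id3, chr4:136143572-136143871, plus strand: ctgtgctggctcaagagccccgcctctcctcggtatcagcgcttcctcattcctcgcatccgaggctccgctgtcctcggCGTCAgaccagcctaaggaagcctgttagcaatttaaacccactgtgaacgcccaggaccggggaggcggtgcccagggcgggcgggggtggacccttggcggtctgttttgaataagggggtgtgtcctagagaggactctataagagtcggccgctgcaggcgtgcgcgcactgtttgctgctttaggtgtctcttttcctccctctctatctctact

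Id2 and this Tcf12 window each held 1 E-box, of the form CAGCTG in both, at position -196 from the start in Id2 and -240 in Tcf12. The Tcf12 windows not shown, at chr9:72111152-72111451 and chr9:71896047-71896346, held 2 and 1 E-boxes, of other forms. The shared form thus holds for 1 of the 3 Tcf12 windows. The form CAGCTG occurred in 16.3% of the 32851 promoter windows of the same length, and CANNTG of any kind in 72.3%. Searching either strand, the windows of Id3 and Id4 held 1 cAMP element core each, at positions -170 and -229, a motif present in 20.8% of all windows. The full element TGACGTCA, found in 1.79% of windows, was in none of the 7 windows of the 5 members with an entry searched (Id2, Id3, Id4, Tcf3 and Tcf12, the last with 3 windows). GGCGCC, a GC-rich element bound by BMP SMADs, was in the windows of Id2 and Id4 and in 11.9% of all. Position 1 is the first base of the RefSeq start, and the core TGACG is part of the full element. These matches describe letters in a window and not bound sites.

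Libraries differed in ways that touch all genes. Between 15400 and 19677 genes were listed above 0, and mitochondrial genes took 20.9% to 33.6% of the TPM, a length-corrected measure of a transcript's share of its library. Both extremes of the mitochondrial share were Vehicle libraries, Vehicle 1 and Vehicle 3. Pax7, the defining gene of muscle stem cells, was at 23.9 to 67.0 TPM, and all 10 muscle stem cell markers passed the filter on low values. Of 8 leukocyte, 8 endothelial, 8 fibro-adipogenic, 7 pericyte and smooth muscle and 6 glial markers, 3, 3, 2, 1 and 2 passed it. Their sums were 3.15 to 11.8, 4.44 to 7.42, 19.2 to 31.6, 7.04 to 16.0 and 4.64 to 6.69 TPM in Vehicle and 8.25 to 15.2, 7.43 to 20.1, 37.5 to 45.9, 10.2 to 11.95 and 3.44 to 9.62 TPM in PGE2. The endothelial gene Cldn5 and the pericyte gene Pdgfrb were listed at 0 in all 6 libraries. The fibro-adipogenic and endothelial sums were thus higher in all 3 PGE2 libraries than in any Vehicle library, the endothelial ones by the margin between 7.42 and 7.43 TPM, and their part in the results was not tested. Few genes carried these sums. Col3a1, the main part of the fibro-adipogenic sum, overlapped (15.3 to 28.1 TPM in Vehicle, 24.9 to 36.5 TPM in PGE2). Ly6a encodes Sca1, a protein that the sorted cells lack. It read 2.22, 3.38 and 7.92 TPM in the Vehicle libraries against 0, 13.6 and 0 TPM in the PGE2 libraries. Col1a1 reached 14.4 TPM in PGE2 3, while in the endothelial sum Emcn reached 15.3 TPM in PGE2 3. In such bulk samples, fewer cells of a type and less RNA per cell cannot be told apart.

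Id2, at chr12:25093799-25097140 on the minus strand of mm10 with 3 annotated transcripts, was the most abundant member. In the order of replicates 1 to 3, it read 649.6, 389 and 247 TPM in the Vehicle libraries against 335, 328 and 322 TPM in the PGE2 libraries. Vehicle 1 was far above every PGE2 library, Vehicle 3 was below all of them, and the 3 PGE2 values lay between Vehicle 2 and Vehicle 3, so the groups overlapped. In each library Id2 stood above 96.5% to 98.4% of the 12781 tested genes. The log2 change, taken as PGE2 minus Vehicle of log2(TPM + 1) here and for every gene, was -0.27 (95% confidence interval -1.08 to 0.54), and it was 0.08 without Vehicle 1.

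Id3 (chr4:136143497-136145755, plus strand), which is often expressed together with Id1, read 105, 100.4 and 63.7 TPM in the Vehicle libraries against 124, 65.1 and 97.5 TPM in the PGE2 libraries. Each group had both high and low libraries, and the ranges overlapped widely. Its log2 change was 0.07 (95% confidence interval -0.70 to 0.84), and it became -0.15 without Vehicle 3 and -0.14 without PGE2 1.

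Id1 (chr2:152736251-152737410, plus strand), the Id gene most closely tied to BMP signalling, read 29.9, 19.8 and 26.96 TPM in the Vehicle libraries against 58.0, 9.61 and 14.0 TPM in the PGE2 libraries. PGE2 1 was above and the other PGE2 libraries were below every Vehicle library. PGE2 1 was also the highest PGE2 library for 47.9% of all tested genes and for 4 of 7 members. It had the fewest genes above 0 (15400). Within PGE2 the highest value was 6.04 times the lowest, against 1.51 times in Vehicle. The mean was therefore slightly higher in PGE2 (27.2 ± 26.8 against 25.6 ± 5.18 TPM, mean ± SD, n = 3 each) while the log2 change was -0.31 (95% confidence interval -1.62 to 1.00). The value moved with each PGE2 library left out: the log2 change was -1.05 without PGE2 1, 0.18 without PGE2 2 and -0.07 without PGE2 3. Without PGE2 1, the limma p of Id1 was 0.0234 before and 0.587 after Benjamini-Hochberg adjustment. The same omission raised the number of genes with an unadjusted limma p under 0.05 from 464 to 979 of 12781.

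Id4 (chr13:48261228-48266026, plus strand), the Id gene better known from neural and glial precursors, was near the lower limit of the table, at 2.43, 3.52 and 0 TPM in the Vehicle libraries against 1.54, 0.74 and 2.77 TPM in the PGE2 libraries. The groups overlapped throughout. Its log2 change of 0.03 had the widest interval of the 7 (95% confidence interval -1.51 to 1.58), and the sign turned without Vehicle 3 (-0.62) or PGE2 3 (-0.25). With a pseudocount of 0.1 TPM in place of 1 the log2 change was 0.70. An antisense gene, A330033J07Rik, overlaps Id4 on the other strand and read at most 2.54 TPM. Whether the counting used strand is not given in the sources used here.

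Among the E proteins, Tcf12 (chr9:71842688-72111871, minus strand), which encodes HEB, a partner of MyoD, was the most abundant. It read 145, 96.9 and 73.1 TPM in the Vehicle libraries against 83.6, 74.4 and 80.6 TPM in the PGE2 libraries. In TPM as deposited the PGE2 libraries were close to one another, between Vehicle 2 and Vehicle 3, as for Id2. With TPM rescaled without mitochondrial genes, PGE2 1 and PGE2 2 (109.3 and 100.5) lay below Vehicle 3 (110.6). After median-ratio scaling PGE2 1 did (69.3 against 71.2). Its log2 change was -0.34 (95% confidence interval -1.06 to 0.38), and -0.08 without Vehicle 1. In the annotation 11 other genes overlap Tcf12, 7 of them on its strand, with values of up to 17.7 TPM (in PGE2 3). Within Vehicle, each of the 7 was highest in Vehicle 1, where none exceeded 13.5 TPM. How reads were shared between the overlapping genes and Tcf12 is not given in the sources used here, and their part in its values was not tested.

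Tcf4 (ENSMUSG00000053477, chr18:69343356-69689079, plus strand), which encodes the E protein ITF2, read 84.7, 67.6 and 56.0 TPM in the Vehicle libraries against 50.8, 54.5 and 48.2 TPM in the PGE2 libraries. Every PGE2 library was below every Vehicle library, the nearest being 54.5 and 56.0 TPM. The means were 69.5 ± 14.4 and 51.2 ± 3.15 TPM (mean ± SD, n = 3 each), and the log2 change of -0.41 (95% confidence interval -1.08 to 0.25) was the largest of the 7 in size. The groups also stayed apart with TPM rescaled without mitochondrial genes, at 84.8 to 107.7 in Vehicle and 66.5 to 73.6 in PGE2, but overlapped after median-ratio scaling, at 54.6 to 81.0 and 42.1 to 57.7.

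Tcf3 (chr10:80409514-80433647, minus strand), the E protein gene long studied in lymphocytes, read 11.02, 12.9 and 8.41 TPM in the Vehicle libraries against 11.5, 16.6 and 3.84 TPM in the PGE2 libraries. The PGE2 libraries enclosed the Vehicle range, with a 4.32-fold span against 1.53-fold. The log2 change was -0.18 (95% confidence interval -1.41 to 1.04), and it was 0.35 without PGE2 3.

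**Figure D1:**
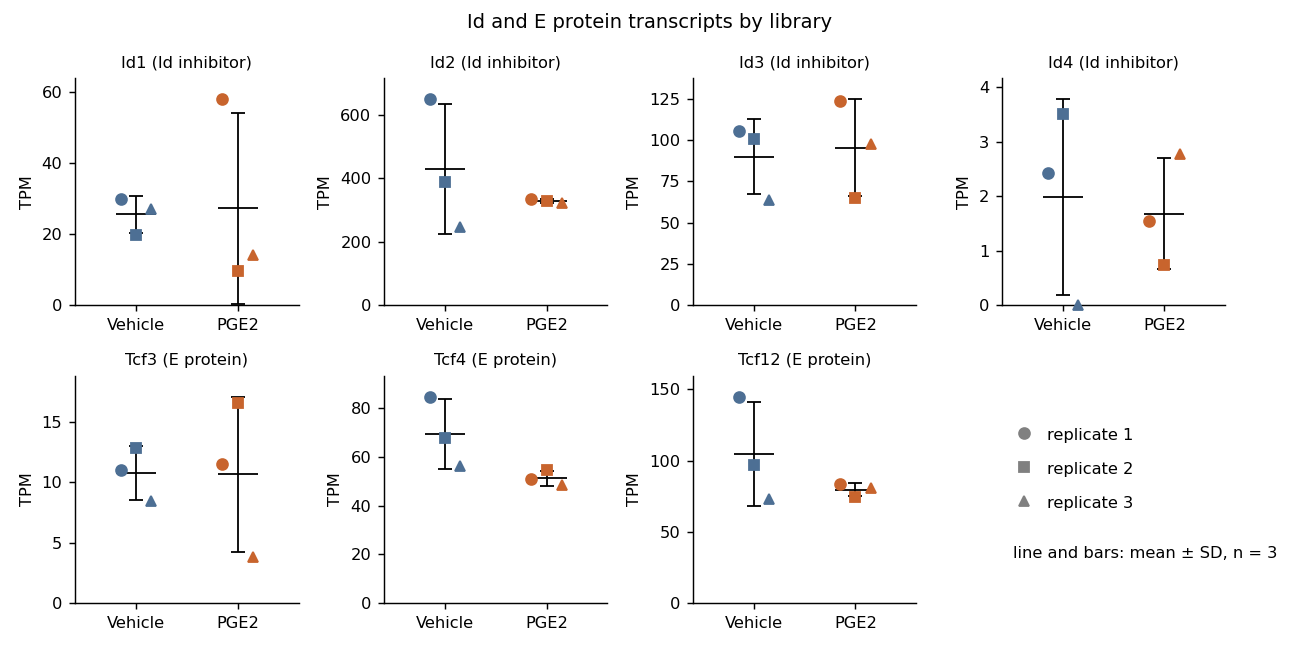
TPM of each Id inhibitor and E protein in the 3 Vehicle and 3 PGE2 libraries, 1 panel per gene, with each axis starting at 0. Points are libraries, with the symbol giving the replicate number, and lines with bars are the mean ± SD. Id2 and Tcf12 spread widely in Vehicle, Id1 and Tcf3 in PGE2, the PGE2 values of Id2, Tcf4 and Tcf12 lie close together, and Tcf4 alone does not overlap. Median-ratio scaling (not plotted) loosens those PGE2 values and makes Tcf4 overlap.

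By the fit, 5 of the 7 members were lower and 2 higher with PGE2, where 56.1% of all tested genes were lower. The median log2 change was -0.27 over the members and -0.07 over the 12781 tested genes. By limma, with p-values adjusted by Benjamini-Hochberg across the 12781 genes, 0 of 7 members passed at 0.05, as did 0.0% of genes, and the adjusted p was 1.00 for each member. An unadjusted p under 0.05 was found for 0 of 7 members and 3.63% of genes, and the smallest member p was 0.196, for Tcf4. The 95% confidence intervals were wide. As ratios of PGE2 to Vehicle in TPM + 1, they ran from 0.472 to 1.45 for Id2 and 0.617 to 1.79 for Id3. They ran from 0.473 to 1.19 for Tcf4 and 0.480 to 1.30 for Tcf12. For Id1, Tcf3 and Id4 they ran from 0.324 to 2.00, 0.377 to 2.05 and 0.352 to 2.98. The added 1 weighs heavily on Id4, which lay at 0 to 3.52 TPM. With a pseudocount of 0.1 TPM the log2 change of Id4 was 0.70. The limits given for Id4 therefore do not bound its ratio in TPM itself.

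**Figure D2:**
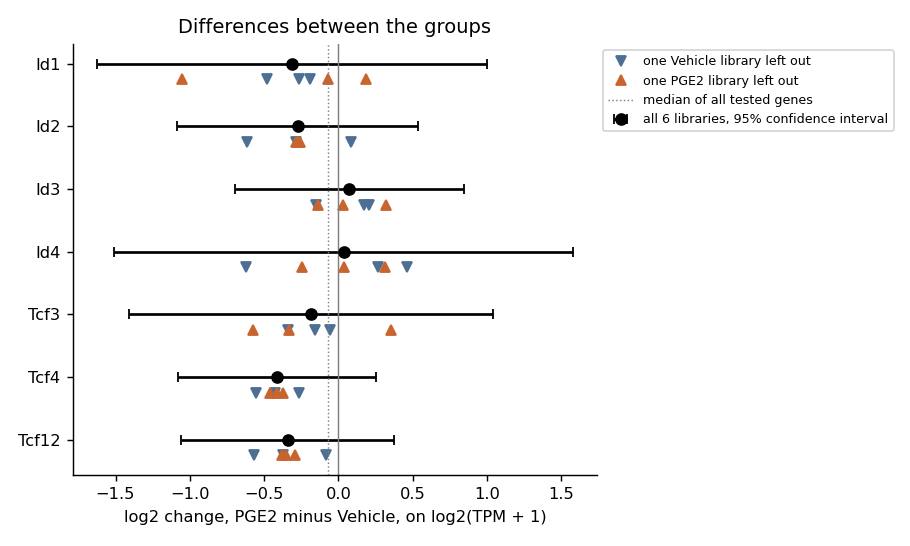
Log2 change of each member, PGE2 minus Vehicle on log2(TPM + 1), with its 95% confidence interval over 6 libraries (black) and the value with 1 Vehicle (blue) or 1 PGE2 (orange) library left out. All intervals include 0, and leaving out PGE2 1 moves Id1 to -1.05, while Tcf4 and Tcf12 stay below 0 under each omission.

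By mean TPM over all libraries the order was Id2, Id3, Tcf12, Tcf4, Id1, Tcf3 and Id4. Id2 was first and Id4 last in each of the 6 libraries. Id3 and Tcf12 were not ordered, with Id3 above Tcf12 in 3 of 6 libraries and a ratio from 0.727 to 1.48. Tcf12 was above Tcf4 in 6 of 6 libraries, by 1.30 to 1.71 times. Tcf4 exceeded Id1, and Id1 exceeded Tcf3, in 5 of 6 libraries, with the exceptions in PGE2 1 and PGE2 2.

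Summed per library, the 4 Id genes gave 787, 513 and 338 TPM in the Vehicle libraries against 518, 403 and 436 TPM in the PGE2 libraries. The 3 E protein genes gave 240.5, 177 and 138 TPM in the Vehicle libraries against 146, 146 and 133 TPM in the PGE2 libraries. Both sums were highest in Vehicle 1. The PGE2 values of the Id sum lay inside the Vehicle range, and those of the E protein sum lay at the lower end of its range or, in PGE2 3, below it. The ratio of the sums, in which any scaling between libraries cancels, was 3.27, 2.89 and 2.46 in Vehicle and 3.55, 2.77 and 3.29 in PGE2. The ratio overlapped between the groups, with means of 2.87 ± 0.409 and 3.20 ± 0.399 (mean ± SD, n = 3 each), and Id transcripts outnumbered E protein transcripts in each library. Id2 made up 64.7% to 82.5% of the Id sum. Tcf12 made up 51.1% to 60.8%, Tcf4 34.8% to 40.7% and Tcf3 2.89% to 11.4% of the E protein sum.

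**Figure D3:**
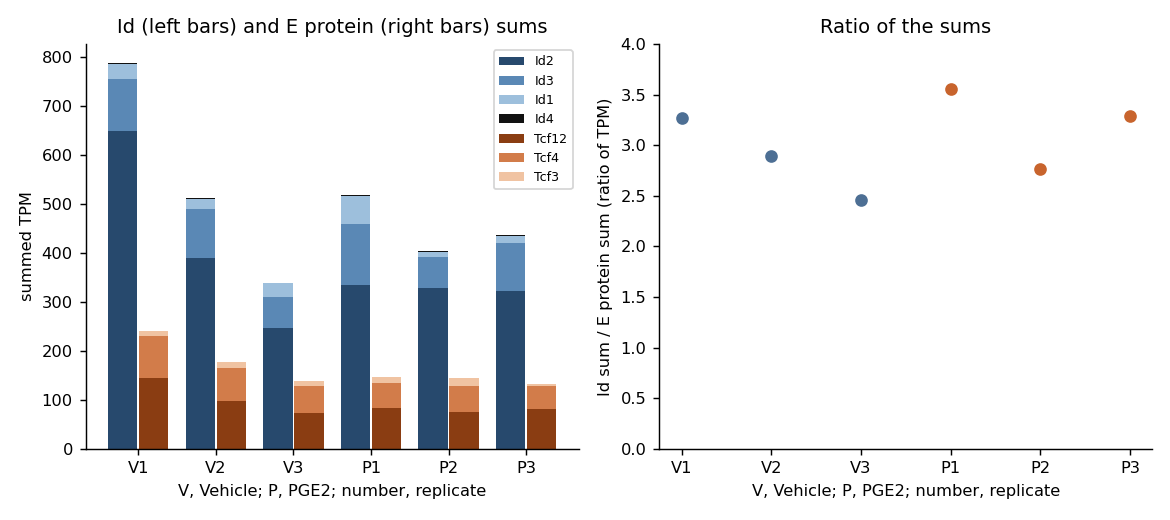
Left, TPM of the Id genes (blue) and of the E protein genes (brown) stacked for each library. Right, the ratio of the Id sum to the E protein sum for each library on an axis from 0, between 2.46 and 3.55 with both groups mixed.

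The myogenic factors with which E proteins pair were set beside these sums. Myod1, Myf5, Myog and Myf6 together gave 355, 396 and 413 TPM in the Vehicle libraries against 266, 274 and 421 TPM in the PGE2 libraries, nearly all of it Myf5 and Myod1. Myod1 was at 102.8 to 109 TPM in Vehicle and 89.5 to 146 TPM in PGE2, and Myf5 at 250.9 to 303 and 119.8 to 301 TPM. Myog, the factor of differentiating cells, was at 0.91 to 3.52 TPM in Vehicle, was listed at 0 in all 3 PGE2 libraries and did not pass the filter. The E protein sum was thus 0.315 to 0.678 times, and the Id sum 0.817 to 2.22 times, the myogenic sum. The first Vehicle library was the highest of the 3 in E protein and Id transcripts and the lowest in myogenic ones.

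The spread within groups differed among the members, a pattern noticed after the values were seen. Among 8370 genes whose mean reached 5 TPM, the median SD of log2(TPM + 1) was 0.366 in Vehicle and 0.588 in PGE2, and 29.5% of genes varied less in PGE2. Id2 had an SD of 0.70 in Vehicle and 0.03 in PGE2, the latter as small as in 0.299% of genes. For Tcf12 the SDs were 0.49 and 0.08, and for Tcf4 0.29 and 0.09, with 1.76% and 1.89% of genes at or below the PGE2 values. All such shares are over the 8370 genes and not over genes of a like level. Id1 and Tcf3 varied more in PGE2, as most genes did, with 0.30 in Vehicle and 1.31 in PGE2 for Id1 and 0.28 and 0.97 for Tcf3. At or below these PGE2 values lay 90.2% and 79.2% of genes. For Id3 the SDs were 0.39 and 0.46, and for the low gene Id4 they were 1.16 and 0.56. The closeness of the PGE2 libraries depended on scaling. After median-ratio scaling the SDs in Vehicle and PGE2 were 0.68 and 0.22 for Id2, 0.48 and 0.21 for Tcf12 and 0.28 and 0.24 for Tcf4, so that those of Tcf4 were nearly equal. The share of genes at or below these PGE2 values was then 11.3%, 10.4% and 14.3%. After removal of mitochondrial genes the PGE2 SD was 0.05, 0.11 and 0.07.

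**Figure D4:**
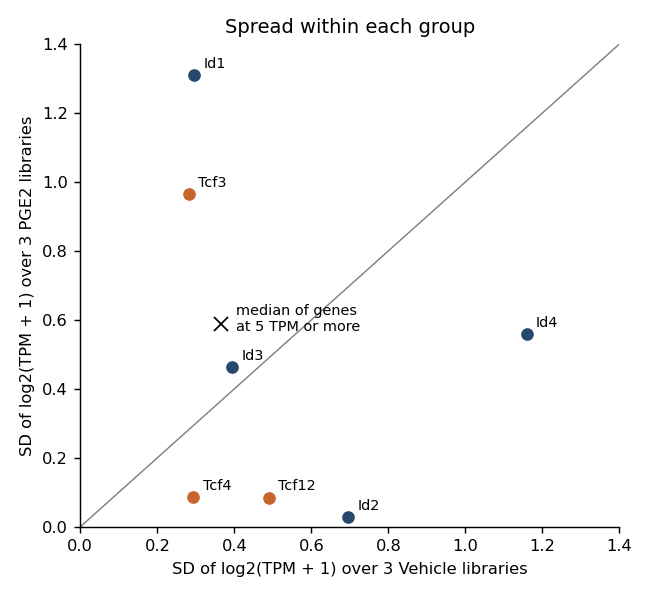
SD of log2(TPM + 1) over the 3 Vehicle libraries (horizontal) and the 3 PGE2 libraries (vertical) for each member, Id genes in blue and E proteins in orange. The cross marks the medians over genes whose mean reached 5 TPM (0.366 and 0.588) and the line marks equal SDs. Id2, Tcf4 and Tcf12 lie near the bottom in TPM as deposited (at 0.21 to 0.24 after median-ratio scaling). Id1, Tcf3 and, by a small margin, Id3 lie above the line, as does the cross.

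Within Vehicle, the first library was the highest of its group for 5 of 7 members and the third was the lowest for 6 of 7, where over all tested genes this was so for 36.6% and 38.1%. With TPM rescaled without mitochondrial genes, Vehicle 1 was highest for 3 of 7 members (28.2% of genes) and Vehicle 3 lowest for 6 of 7 (31.1%). The 3 Vehicle libraries had mitochondrial shares of 20.9%, 28.3% and 33.6% and 19677, 18201 and 16446 genes above 0. The part of either in the members' order was not tested.

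Profiles were compared by the root mean square difference of log2(TPM + 1), each gene centred on its own mean over the 6 libraries, among 7383 protein-coding genes whose mean reached 5 TPM. All points share library depth and composition, so the measure is a description. The genes most like Id2 were Pkig, which encodes an inhibitor of protein kinase A, at 0.0639, the cyclin-dependent kinase subunit gene Cks1b at 0.124 and Tcf12 at 0.133, in place 3. Seen from Tcf12, Id2 was in place 15 and Tcf4 in place 22 of 7383, with Kctd12, Klhl7 and Tmed9 nearest. Tcf4 was nearest to Ikzf5, Pcbp2 and Snx3, with Tcf12 in place 47 and Id2 in place 309. Seen from Id2, Tcf4 was in place 105, at 0.247. The ratio of Id2 to Tcf12 stayed between 3.38 and 4.49 in the 6 libraries, and since any scaling between libraries nearly cancels in it, Tcf12 kept place 3 for Id2 after median-ratio scaling.

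The other members had neighbours of their own. Id3 was nearest to Mdfic, a gene with the domain of the MyoD family inhibitor, at 0.0501, then to Zkscan1 and the condensin gene Ncapg. Mdfic read 35.9, 33.7 and 21.1 TPM in the Vehicle libraries against 40.2, 22.6 and 30.6 TPM in the PGE2 libraries. Id1 was nearest to Ints7, St3gal1 and the mitotic kinesin gene Kif20a. Atg16l1 and Snapc4 were among the genes nearest to Tcf3. Id4 was nearest to Tvp23b, Ppargc1b and Rell1, with a difference of 0.262 or more. Id1 and Id3, often expressed together, differed by 0.646, and 26.6% of genes were closer to Id1 than Id3 was.

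The BMP route to the Id genes was described by 36 genes in 5 lists, of which 24 passed the filter. With PGE2 the fitted value was above Vehicle for 12 and below it for 12, with a median log2 change of 0.01. None passed limma's test with Benjamini-Hochberg adjustment or an unadjusted p under 0.05, and 3 of the 24 did not overlap between the groups, beside 8.01% of all tested genes. The ligand Bmp4 read 0.82, 2.36 and 2.97 TPM in the Vehicle libraries against 10.9, 3.78 and 2.46 TPM in the PGE2 libraries, and 8 of the other 9 ligands did not pass the filter. The type I receptor gene Bmpr1a was well expressed and overlapped, at 57.7 to 67.7 TPM in Vehicle and 44.8 to 80.8 TPM in PGE2. Of the genes without overlap, Smad1, which encodes a BMP signal transducer, read 32.9, 31.3 and 36.7 TPM in the Vehicle libraries against 27.4, 20.9 and 22.6 TPM in the PGE2 libraries. Twsg1, which encodes an extracellular BMP modulator, read 57.3, 65.0 and 75.2 TPM in the Vehicle libraries against 56.0, 31.8 and 44.0 TPM in the PGE2 libraries. Eng, a co-receptor gene that is also an endothelial marker, had the higher values in PGE2, from 2.54 to 6.44 against 0.96 to 1.57 TPM.

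The SMAD feedback genes, targets of the same pathway as the Id genes, did not separate the groups. Smad7 read 34.7, 41.6 and 14.2 TPM in the Vehicle libraries against 28.3, 25.04 and 25.8 TPM in the PGE2 libraries. As for Id2 in TPM as deposited, Vehicle 3 was the lowest and the PGE2 libraries lay close together. Unlike for Id2, Vehicle 2 and not Vehicle 1 was the highest. Smad6 read 1.33, 0.41 and 4.62 TPM in the Vehicle libraries against 1.23, 0 and 0.19 TPM in the PGE2 libraries. Of 5 Id protein turnover genes, all tested, 4 had a higher fitted value, where 56.1% of all tested genes had a lower one, and none passed. Usp1, the deubiquitinase that stabilizes Id proteins, was at 120.2 to 156 TPM in Vehicle and 117 to 165 TPM in PGE2. Its cofactor gene Wdr48 read 5.14, 7.15 and 10.1 TPM in the Vehicle libraries against 12.4, 14.2 and 10.2 TPM in the PGE2 libraries. It was without overlap, as were 8.01% of all tested genes, although the nearest values of the groups almost met.

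No other factor of the E-box passed the test. Of 18 further class II partners, 4 passed the filter, and Twist1 was listed at 0 in 5 of 6 libraries. Msc, which encodes the repressor MyoR, read 1.31, 3.58 and 1.55 TPM in the Vehicle libraries against 0, 10.04 and 0 TPM in the PGE2 libraries. The little-studied Tcf24 was at 0 to 0.17 TPM in Vehicle and 1.07 to 3.22 TPM in PGE2. It passed the filter only through its PGE2 values, so it had to differ and its fit is not given. Of 5 tested Hes, Hey and Bhlhe repressors 4 had a higher fitted value, and of 4 tested zinc finger E-box repressors 2, with 0 called in each list. Of 5 tested E protein corepressors and coactivators, 4 had a lower fitted value and 0 were called. Of 6 regulators of Id promoters outside the BMP route, 3 were higher and 0 were called. Beside these counts, 56.1% of all tested genes had a lower fitted value.

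Of 15 E-box targets of E proteins and MyoD, 14 had their symbol in the table and 9 passed the filter. Of these, 6 were lower and 3 higher by the fit (median log2 change -0.18), and 0 were called. Acta1, the skeletal muscle actin gene, was the 1 tested target without overlap, at 3.79 to 6.82 TPM in Vehicle and 0.81 to 3.47 TPM in PGE2. Over all tested genes, 56.1% had a lower fitted value, 4.84% were lower without overlap and 3.63% had an unadjusted limma p under 0.05. These shares are the background for the small lists here and below. Of the retinoblastoma family, whose proteins Id2 can bind, all 3 genes had lower fitted values (median -0.46) with 0 called, and Rb1 was without overlap, at 29.5 to 48.5 TPM in Vehicle and 19.7 to 22.4 TPM in PGE2. Among the T cell factors of similar name, Tcf7l2 read 91.1, 48.7 and 68.0 TPM in the Vehicle libraries against 43.1, 86.8 and 36.5 TPM in the PGE2 libraries. Tcf7l1 was at 1.39 to 10.7 TPM in Vehicle and 1.48 to 3.82 TPM in PGE2, and both overlapped. All 4 T cell factors had lower fitted values, and Lef1 was without overlap, at 8.49 to 17.5 TPM in Vehicle and 1.59 to 5.42 TPM in PGE2, with an unadjusted limma p of 0.00947 and a Benjamini-Hochberg adjusted p of 1.00.

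**Figure D5:**
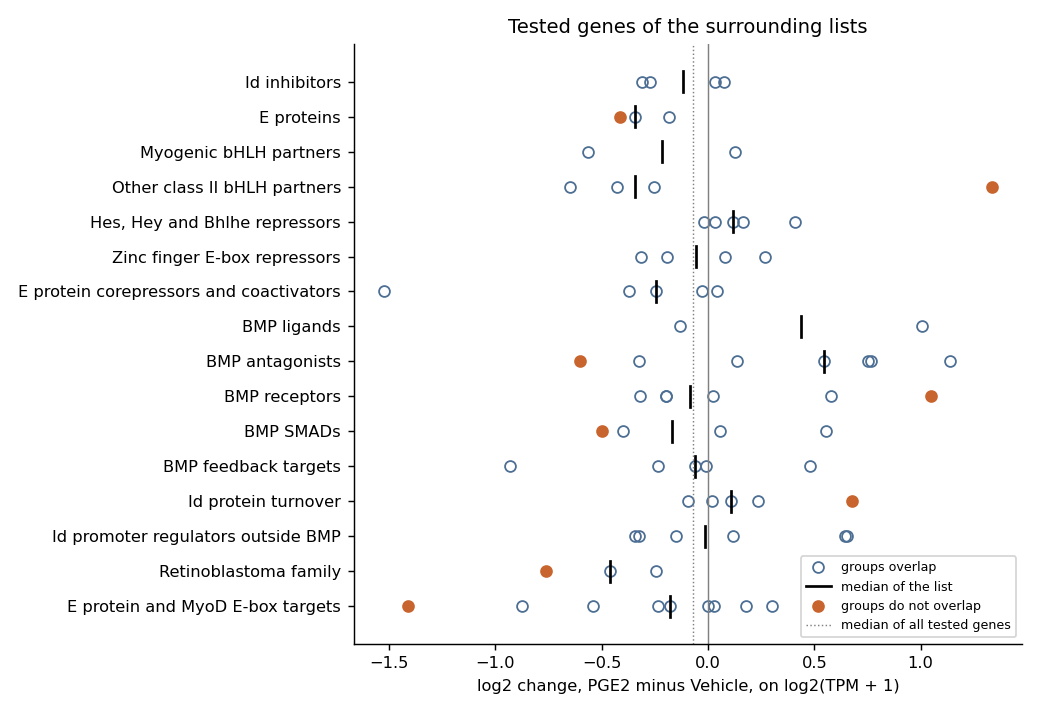
Log2 change, PGE2 minus Vehicle on log2(TPM + 1), of each tested gene in the Id and E protein lists and 14 surrounding lists. Filled points are genes whose groups do not overlap, short bars the list medians and the dotted line the median of all tested genes (-0.07). The filled point among the other class II partners is Tcf24, which passed the filter only through its PGE2 values and so had to differ. It is part of that list's median. Genes of most lists lie on both sides of 0.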

How the data were processed

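The deposited values are TPM, 1 column per library, in a table of 43283 genes. The authors worked with RSEM, STAR and mm10, per the submitters' processing notes, with versions and settings not given in the sources used. The unit was read from the values, whose library totals run from 992357 to 995645. Read depth cannot be had from TPM, so the spread between 3 libraries per group sets the precision. Positions are from GENCODE M21 (mm10), in which 42782 identifiers were found, and promoters from RefSeq (GRCm38.p6).

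The 12781 genes that reached 1 TPM in 3 libraries or more were tested with limma 3.58.1 in R 4.3.3 on log2(TPM + 1), with a mean trend in the variance prior, all 6 libraries, no block, two-sided, and Benjamini-Hochberg adjustment over all tested genes at 0.05. Such changes understate those of low genes. No set test was run. The fit was tested on simulated data, with planted changes larger than those of the members and an outcome not reported here. It therefore does not bear on changes as small as theirs. Tables and figures were made in Python 3.11.15.

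The members and the 23 gene lists (163 entries) were chosen with earlier results of these data known. Named were all members, up to 4 genes per list with an unadjusted p under 0.05 or no overlap, a fixed set of regulators of interest, and the 3 genes most like each member, of which 1 is not reported here; Pax7, Cldn5, Pdgfrb, Col3a1, Ly6a, Col1a1, Emcn and A330033J07Rik were added after their values were seen. Alternatives covered pseudocount, filter, scaling, variance prior, library weights, replicate block and each library left out.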

Additional observations from a re-analysis of the deposited data

How the results depend on the processing

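No member passed limma's Benjamini-Hochberg threshold under any of the 16 alternatives (111 member values, as Id4 was untested at 5 TPM or more in at least 3 libraries). The number of genes called over the whole table was 4 without a mean trend, 1 with a robust prior and 0 to 2 with 1 library left out, against 0, and 464 genes had an unadjusted p under 0.05. The sign of a log2 change turned in 9 of the 111 values. With library weights Id3 became -0.074, Id4 -0.33 and Tcf3 -0.46, and with a pseudocount of 0.1 TPM Id4 became 0.70. With 1 library left out in turn, the log2 change ran from -1.05 to 0.18 for Id1, -0.61 to 0.082 for Id2, -0.15 to 0.32 for Id3, -0.62 to 0.46 for Id4, -0.58 to 0.35 for Tcf3, -0.56 to -0.26 for Tcf4 and -0.57 to -0.08 for Tcf12, and the cause was not tested. The difference in mean log2 Id to E protein ratio was 0.16 and ran from 0.05 to 0.26, an alternative added after seeing the data, as were the scalings of the spread, of the libraries' order and of the profile likeness. Equal replicate numbers did not deviate together (r = -0.0623, -0.044 and 0.0698 across genes), and with the replicate block 0 members and 0 genes were called. TPM keeps no read depth, so no floor can be given for the low gene Id4.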
